A study of Mus musculus with 2 samples.

Results

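The 10 genes described here carry out antigen presentation on MHC class I. They are the heavy chains H2-K1, H2-D1 and H2-Q7, the light chain B2m, the peptide transporter subunits Tap1 and Tap2, tapasin (Tapbp), and the inducible proteasome subunits Psmb8, Psmb9 and Psmb10. They were chosen by name from the 20282 genes of the matrix, and all 10 were found in it. Whole thymus of 6-week-old littermate mice was profiled by single-cell RNA sequencing with a 10x 3′ kit, which counts unique molecular identifiers (UMIs) at the 3′ ends of transcripts. Cells of 5 Cdc42f/f mice were pooled into the library labelled WT, and cells of 5 Cdc42f/f CD4Cre mice into the library labelled KO. Both groups carry the floxed Cdc42 allele. Cre under the CD4 promoter removes floxed exon 2 of Cdc42 from the CD4+CD8+ double-positive (DP) stage on, so earlier thymocytes and cells that do not use that promoter keep the allele. With 1 library per condition there were no replicates and no test was made. Every interval below is an exact 95% interval that covers counting error only, and differences between mice are not in it.

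The WT-labelled library held 6115 cells and 29706197 UMIs (median 3192 per cell) and the KO-labelled library 7568 cells and 37920214 UMIs (median 3401 per cell). The libraries shared 17 cell barcodes, which is 0.278% of all WT-labelled cells and 0.225% of all KO-labelled ones. Of the 19 deposited clusters, 5 with the most Rag1 were taken as DP-like cells, 2 with high Cd5 as signalled DP-like cells, 1 with the most Itm2a as early CD4+ or CD8+ single-positive-like (SP) cells and 1 with the most Ms4a4b as late SP-like cells. Levels are given as CPM, the UMIs of a gene per 1000000 UMIs of the same cells. The 7 DP markers summed to 10751 and 10788 CPM in the Rag1 clusters of the WT- and KO-labelled libraries, and the 6 late SP markers to 3640 and 5152 in the Ms4a4b cluster. Transcripts of Cdc42 stood at 358 and 320 CPM in the Rag1 clusters, 397 and 383 in the Itm2a cluster and 447 and 581 in the Ms4a4b cluster. These 3′ counts do not read the deleted exon and therefore do not check the labels, so the libraries are called by their labels throughout.

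MHC class I molecules show peptides from inside a cell to CD8+ T cells. The proteasome cuts proteins into peptides, TAP pumps them into the endoplasmic reticulum, tapasin holds an empty heavy chain and B2m beside TAP until a peptide is bound, and the loaded complex moves to the surface. Psmb8, Psmb9 and Psmb10 replace the standard catalytic subunits Psmb5, Psmb6 and Psmb7 in the immunoproteasome. DP thymocytes are known for low surface class I, mature SP thymocytes for high class I, and interferons for raising the genes of the whole route.

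In GRCm38 8 of the 10 genes lie on chromosome 17, in the MHC, as annotated by GENCODE vM21. Tapbp lies at chr17:33915899-33929292 (+), H2-K1 at chr17:33996017-34000347 (−), Psmb9 at chr17:34181987-34187764 (−), Tap1 at chr17:34187553-34197225 (+), Psmb8 at chr17:34197721-34201454 (+), Tap2 at chr17:34203527-34216321 (+), H2-D1 at chr17:35262730-35267499 (+) and H2-Q7 at chr17:35439155-35443773 (+). B2m lies at chr2:122147686-122153083 (+) and Psmb10 at chr8:105935735-105938444 (−). In this annotation the Tap1 and Psmb9 genes overlap at their starts, on opposite strands. The RefSeq starts used for the promoters below lie 226 bases apart and face away from each other, at position 34187556 for Tap1 and 34187330 for Psmb9, so their promoter windows share sequence.

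The promoters of the 3 heavy chains and of B2m are shown because these 4 genes form the surface molecule and had the largest ratios between stages. RefSeq promoters (GRCm38.p6, 250 bases before to 50 after each start) were found for 9 of the 10 genes, with no entry for Tap2. H2-K1 has 2 entries, and the first is shown. Only the 250 bases before each start were searched, on both strands. The letters sought were GGGNNTTCC (the kB form bound by NF-kB), AANNGAAA (the form bound by interferon regulatory factors, IRF), TGACG (the core of a CRE site) and CCAAT. Capitals mark these letters, and sequences run 5′ to 3′ on the strand of the gene. The H2-K1 stretch is chr17:34000359-34000468 (−), from 121 to 12 bases before the start, and that of H2-Q7 is chr17:35439012-35439119 (+), from 143 to 36 bases before it. For H2-D1 only the kB-to-IRF stretch, chr17:35262923-35262951 (+), is printed, since an annotated exon of the same gene covers it. The B2m stretch is chr2:122147540-122147638 (+), from 147 to 49 bases before the start.
H2-K1: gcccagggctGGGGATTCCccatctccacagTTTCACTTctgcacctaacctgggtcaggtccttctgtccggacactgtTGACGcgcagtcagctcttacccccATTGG
H2-D1: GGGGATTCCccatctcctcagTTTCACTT
H2-Q7: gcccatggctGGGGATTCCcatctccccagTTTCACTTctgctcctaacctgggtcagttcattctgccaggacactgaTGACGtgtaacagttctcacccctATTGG
B2m: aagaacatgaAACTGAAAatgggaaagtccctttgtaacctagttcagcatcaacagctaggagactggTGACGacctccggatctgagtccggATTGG

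Read from left to right, the heavy chains hold a kB form, an IRF form on the opposite strand, a CRE core and a reversed CCAAT. Between the kB and IRF letters lie 12 bases in H2-K1 and H2-D1 and 11 in H2-Q7, and between the IRF and CRE letters 41 bases in each of the 3. B2m has no kB letters, and its IRF and CRE letters lie 51 bases apart. Among 32851 RefSeq promoters of the same length, 21.3% hold the IRF letters, 4.98% the kB letters, 17.8% the CRE core, 33.8% CCAAT and 1.04% both IRF and kB. Neither the IRF nor the kB letters occur in the windows of Tap1, Tapbp, Psmb8, Psmb9 and Psmb10. The shared window of Tap1 and Psmb9 holds a CRE core and a CCAAT, that of Tapbp 2 CCAAT, and those of Psmb8 and Psmb10 none of the 4. A match describes letters and is not evidence of binding, which was not measured.

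Across thymocyte stages, 8 of the 10 genes were at least 2-fold higher in the Ms4a4b cluster than in the Rag1 clusters of the WT-labelled library (a log2 ratio of 1 or more), where 10.5% of 11728 genes were that much higher. In the KO-labelled library 8 of 10 were also that much higher, against 11.1% of 12438 genes. The median log2 ratio of the 10 was 2.17 in the WT-labelled cells, beside −0.40 over all genes, and 1.66 in the KO-labelled cells, beside −0.19. The clusters were made from all genes, so these ratios describe the stages and test nothing.

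H2-K1, a classical heavy chain, stood at 19.97, 25.1, 555 and 1659 CPM in the Rag1, Cd5, Itm2a and Ms4a4b cells of the WT-labelled library, and at 24.9, 43.0, 269 and 1567 in those of the KO-labelled library. It was low in all DP-like clusters and far higher after them, with a log2 ratio of the Ms4a4b over the Rag1 cells of 6.37 (6.18 to 6.58) and 5.98 (5.83 to 6.13). H2-D1, the other classical heavy chain, stood at 138, 149, 653 and 1377 in the WT-labelled library and 196, 222, 544 and 1656 in the KO-labelled library. Its level in DP-like cells was higher, and its stage difference smaller on the log2 scale, 3.32 (3.23 to 3.41) and 3.08 (3.01 to 3.15).

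H2-Q7 encodes a Qa-2 heavy chain, a nonclassical class I molecule. It stood at 0.736, 0.524, 46.9 and 273 CPM in the WT-labelled library and at 0.521, 0.877, 9.03 and 104 in the KO-labelled library. Only 8 UMIs of it were counted in the Rag1 cells of each library, so its log2 ratios between stages, 8.45 (7.55 to 9.75) and 7.56 (6.64 to 8.87), were large and loosely held. B2m, the light chain that every heavy chain needs, stood at 234, 291, 996 and 1974 in the WT-labelled library and 287, 376, 630 and 1512 in the KO-labelled library. Its log2 ratio was 3.07 (3.00 to 3.14) and 2.40 (2.33 to 2.46).

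Some of these low levels in DP-like cells may be free RNA, which droplets take up from other cells. In the WT-labelled Rag1 cells H2-K1 reached 1.20% of its level in the Ms4a4b cluster, H2-Q7 0.270%, H2-D1 10.0% and B2m 11.9%. The 6 late SP markers, which DP cells should lack, ranged there from 0.0706% for S1pr1 and 0.259% for Il7r through 0.972% for Ms4a4b, 1.25% for Klf2 and 1.79% for Ccr7 to 9.004% for Ms4a6b. H2-K1 and H2-Q7 lay inside that range, and H2-D1 and B2m just above its upper end. In the KO-labelled cells H2-D1 reached 11.8% and B2m 19.0%, beside 11% for Ms4a6b. The markers thus spread too widely to set 1 background, and how much of each level was free RNA could not be told.

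Of the loading genes, tapasin had the largest stage ratio. Tapbp stood at 35.6, 39.8, 118 and 161 CPM from the Rag1 to the Ms4a4b cells of the WT-labelled library and at 41.0, 61.1, 82.4 and 146 in the KO-labelled one, with log2 ratios of 2.18 (1.97 to 2.39) and 1.83 (1.64 to 2.03). Tap1 stood at 40.3, 45.04, 76.0 and 124 and at 43.3, 45.9, 53.1 and 104, a log2 ratio of 1.62 (1.40 to 1.84) and 1.27 (1.04 to 1.48). Tap2, which pairs with Tap1 to form the transporter, went the other way. It stood at 203, 158, 112 and 108 and at 196, 169, 115 and 135, a log2 ratio of −0.91 (−1.11 to −0.72) and −0.54 (−0.72 to −0.37). From the Rag1 to the Ms4a4b cells the mRNAs of these partners thus had ratios of opposite sign in both libraries. Relative to the median of all genes Tap2 was at −0.50 and −0.34. Between the Itm2a and Ms4a4b cells of the KO-labelled library its ratio was 0.23 (−0.03 to 0.49), so the courses were not opposite at each step.

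Among the proteasome subunits, Psmb9 stood at 59.3, 63.9, 164 and 266 CPM in the WT-labelled library and 67.1, 72.2, 106 and 187 in the KO-labelled one, with log2 ratios of 2.16 (2.00 to 2.32) and 1.48 (1.31 to 1.64). Psmb10 stood at 70.9, 80.7, 144 and 207 and at 76.3, 111, 108 and 183, a log2 ratio of 1.55 (1.38 to 1.71) and 1.26 (1.10 to 1.43). Psmb8 stood at 544, 711, 695 and 776 and at 497, 678, 586 and 611, a log2 ratio of 0.51 (0.44 to 0.59) and 0.30 (0.21 to 0.38). Psmb8 was therefore already near its late level in DP-like cells, while Psmb9 and Psmb10 were not. The standard subunits that they replace had WT-labelled log2 ratios of 0.13 (−0.04 to 0.29) for Psmb5, −0.40 (−0.55 to −0.25) for Psmb6 and −0.45 (−0.66 to −0.25) for Psmb7. The median over all genes was −0.40, so Psmb6 and Psmb7 were close to it and Psmb5 was above it.

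**Figure D1:**
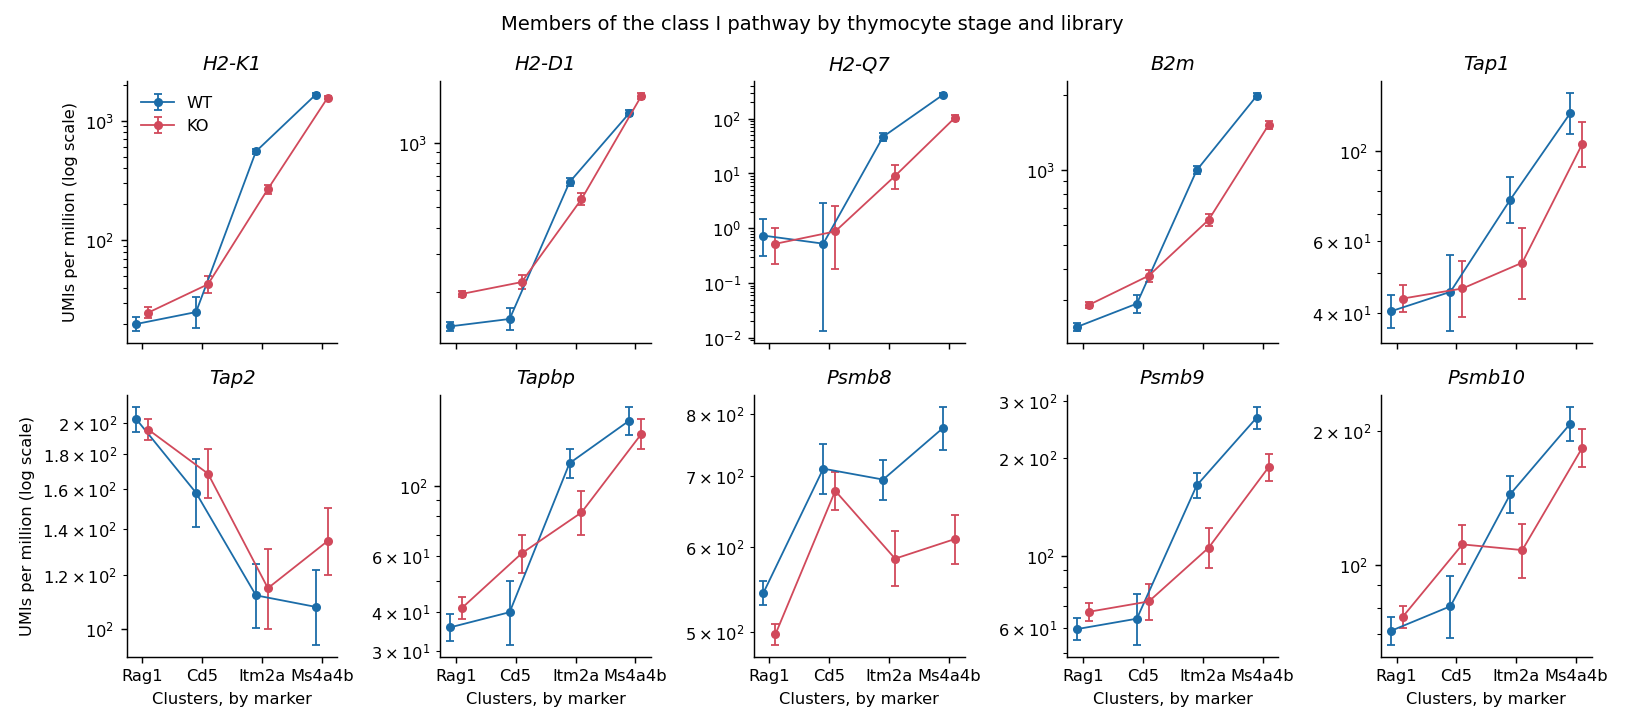
CPM of each of the 10 genes in the Rag1, Cd5, Itm2a and Ms4a4b cells of the WT- and KO-labelled libraries, on log axes with exact 95% Poisson intervals as bars. H2-K1 goes from 19.97 to 1659 in the WT-labelled library while Tap2 goes from 203 to 108, and in the Itm2a cells the KO-labelled points of H2-K1, H2-Q7 and B2m lie below the WT-labelled ones.

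In the WT-labelled library the heavy chains and B2m were highest in the non-thymocyte Cd74 or Apoe cluster. In the KO-labelled library this held for B2m, while the heavy chains were highest in a cluster of 8 cells. The cell type of that cluster was not assigned here, and for H2-Q7 its interval overlapped the next. In the WT-labelled library H2-K1 was highest in the Apoe cluster, at 2767 (2288 to 3316) CPM, followed by the Cd74 cluster at 2028 (1844 to 2225) and the Ms4a4b cluster at 1659 (1607 to 1712). These 3 intervals do not overlap. The clusters at the low end, from cluster 5 down to cluster 0, ran from 28.0 to 15.6, and each neighbour in that order overlapped the next. In the KO-labelled library the order at the top differed, with that small cluster (cluster 18) at 1998 (1772 to 2245), then the Ms4a4b cluster at 1567, the Cd74 cluster at 1275 and the Apoe cluster at 1010, the intervals of the last pair overlapping. H2-D1 had the same order there, at 2005, 1656, 1569 and 1515, in which the Ms4a4b, Cd74 and Apoe clusters each overlapped the next. B2m was highest in the Apoe cluster of both libraries, at 4233 and 2525.

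The Myl10 cluster had class I levels above those of DP-like cells. Its 6 measured markers of early CD4-CD8- and gamma-delta thymocytes summed to 4105 and 4060 CPM, beside 72.4 and 80.4 in the Rag1 clusters. H2-K1 stood there at 487 and 354 CPM, H2-D1 at 468 and 416, and B2m at 1360 and 1250 in the WT- and KO-labelled libraries. Psmb8 stood at 1011 (927 to 1100) in the WT-labelled Myl10 cells, first in its order but overlapping the Cd74 cluster at 905 (783 to 1040). Dividing clusters differed from one another: H2-K1 was at 22.6 and 31.2 in cluster 10 and at 131 and 131 in cluster 11. Psmb9 was at 192 and 187 in cluster 10, above its 59.3 and 67.1 in resting DP-like cells.

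**Figure D2:**
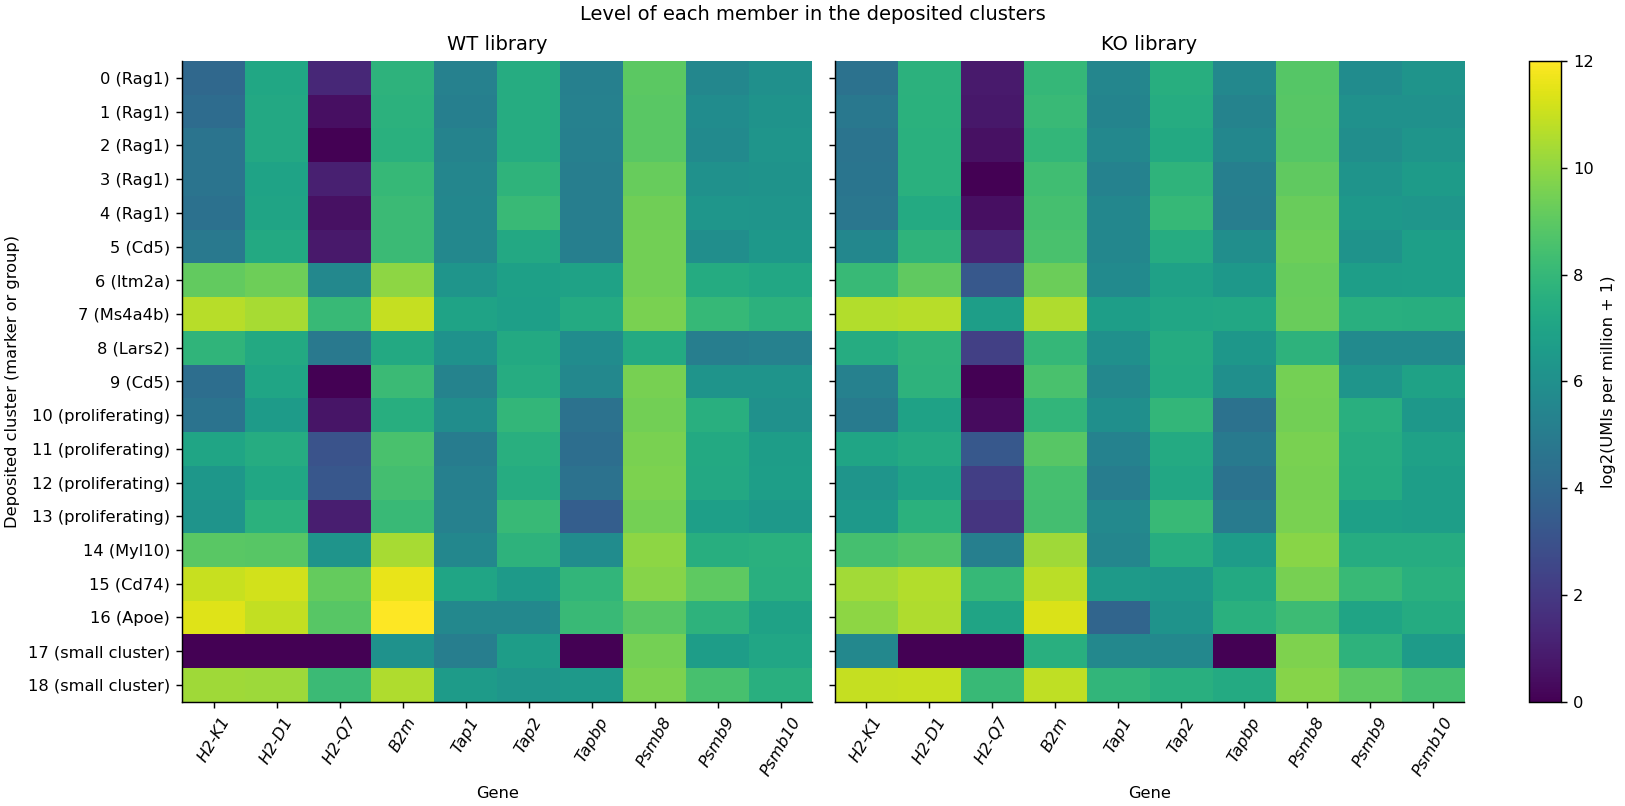
Level of each gene in each deposited cluster of both libraries, as a colour on a scale of log2(CPM + 1). The Ms4a4b (7), Cd74 (15) and Apoe (16) clusters and the small cluster 18 carry the most H2-K1, H2-D1, H2-Q7 and B2m, while Psmb8 is high in nearly every cluster and lowest in the Lars2 cluster (8), at 159 and 215.

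Over the 15 thymocyte clusters of the WT-labelled library with at least 50 cells, H2-K1 and H2-Q7 had a Pearson correlation of 0.96 on the scale of log2(CPM + 10), H2-D1 and B2m 0.93, and B2m and Psmb10 0.95. Tap2 went against most of the others, at −0.77 with Tapbp and −0.59 with Tap1, and Psmb8 was close to unrelated to H2-K1, at 0.10. Of 8950 genes ranked by their mean correlation with the 10, the leading ones were Capg (0.658), AW112010, Lfng, Ly6a, Runx3, Gm12250, Ncf4, Tmem173, Itgae and Psme1 (0.637). The points are clusters of 1 library, which share its depth and free RNA, so these values are a description.

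Between the libraries, DP-like cells of the KO-labelled library had slightly more of the surface genes. In the Rag1 clusters 1 of the 9 genes with at least 20 UMIs was higher by a log2 ratio of 0.5 or more, against 7.44% of 12983 genes, and 0 were lower by as much, against 3.08%. That gene was H2-D1, with 1497 WT-labelled UMIs (138 CPM) and 3004 KO-labelled UMIs (196 CPM), a log2 ratio of KO over WT of 0.50 (0.42 to 0.60). It was 0.46 with DESeq2 size factors, which ends that call. B2m had a ratio of 0.29 (0.22 to 0.36), H2-K1 0.31 (0.07 to 0.56), Tapbp 0.20 (0.02 to 0.39) and Psmb9 0.18 (0.03 to 0.32), while Psmb8 was at −0.13 (−0.18 to −0.08). The median of the 9 was 0.18, beside 0.05 over all genes. Late SP markers, which DP cells should lack, were also higher in sum in the KO-labelled Rag1 cells. Without Klf2 and S1pr1 they summed to 75.4 and 91.9 CPM. Ms4a4b stood at 15.5 and 19.4, Ms4a6b at 54.7 and 66.8 and Ccr7 at 4.51 and 5.53, while Il7r went the other way, at 0.644 and 0.195. The part of free RNA in these ratios was not tested.

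In the Cd5 clusters 3 of 9 genes were higher by 0.5 or more, against 9.38% of 9854 genes, and 0 were lower, against 4.88%. H2-K1 stood at 25.1 and 43.0 CPM (48 and 147 UMIs), a ratio of 0.76 (0.29 to 1.28), H2-D1 at 149 and 222, a ratio of 0.57 (0.38 to 0.78), and Tapbp at 39.8 and 61.1, a ratio of 0.61 (0.23 to 1.02). B2m was at 0.37 (0.23 to 0.52) and Psmb10 at 0.46 (0.19 to 0.74), and the median was 0.37 beside 0.04. In the 4 dividing clusters together 0 of 10 genes passed in either direction, against 7.32% higher and 3.70% lower, with a median of 0.06 beside 0.04. The largest ratios there were 0.33 (0.08 to 0.60) for Tapbp and 0.26 (0.19 to 0.33) for B2m.

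The direction was the opposite in the Itm2a cluster, of 479 WT-labelled and 316 KO-labelled cells. There 6 of 10 genes were lower by 0.5 or more in the KO-labelled cells, against 6.68% of 9790 genes, and 0 were higher, against 15.8%. The median of the 10 was −0.51, beside 0.16 over all genes, and 9 of the 10 intervals lay below 0. H2-K1 had 1693 WT-labelled UMIs (555 CPM) and 506 KO-labelled UMIs (269 CPM), a ratio of −1.04 (−1.19 to −0.90). B2m stood at 996 and 630 CPM, a ratio of −0.66 (−0.76 to −0.56), and H2-D1 at 653 and 544, a ratio of −0.26 (−0.37 to −0.15). The classical heavy chains thus differed by 0.78 in their log2 ratios.

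Of the 6 loading and proteasome genes, 3 were lower by 0.5 or more in the Itm2a cluster. Psmb9 stood at 164 and 106 CPM, a ratio of −0.64 (−0.88 to −0.40), Tapbp at 118 and 82.4, a ratio of −0.52 (−0.80 to −0.24), and Tap1 at 76.0 and 53.1, a ratio of −0.51 (−0.87 to −0.17). Psmb10 was at −0.42 (−0.67 to −0.18) and Psmb8 at −0.25 (−0.35 to −0.14). Tap2, at 112 and 115, had a ratio of 0.04 (−0.22 to 0.28), so only its interval held 0. Of the markers of other cell types, the 4 for B cells summed to 9.50 and 15.9 CPM here and the 6 for macrophages to 4.26 and 26.0. The 9 for dendritic cells, which include Ccr9 of thymocytes, summed to 879 and 1399.

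The Itm2a cluster held earlier and later cells in different shares in the libraries. At the authors' finer resolution of 1.8 most of its cells fall in 2 clusters, examined after the data were seen. The later one, numbered 10, held 316 of the 479 WT-labelled cells (66.0%, 61.5 to 70.2) and 132 of the 316 KO-labelled cells (41.8%, 36.3 to 47.4). The earlier one, numbered 12, held 29.6% (25.6 to 34.0) and 50.6% (44.98 to 56.3). The late markers Ms4a4b, Klf2, Ccr7 and S1pr1 were each higher in the later than in the earlier cells of both libraries, which is why the parts are so called. Between the libraries these markers did not move together. Ms4a4b was at 428 and 249 CPM in the later and at 59.8 and 48.8 in the earlier cells of the WT- and KO-labelled libraries. Klf2 went the other way, at 212 and 430 in the later and 4.08 and 114 in the earlier cells. S1pr1 stood at 26.6 and 23.5 in the later cells, and Ccr7 at 216 and 170. The early markers Itm2a, Ccr9 and Cd69 were each higher in the KO-labelled later cells. They stood there at 1315 and 1906, 620 and 1062, and 170 and 252 CPM. In the earlier cells Itm2a stood at 2523 and 2294, Ccr9 at 1683 and 1793, and Cd69 at 345 and 252.

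In the earlier cells 0 of the 9 members with enough UMIs were past 0.5 in either direction, against 7.98% of 7353 genes lower and 14.3% higher, and each interval held 0. H2-K1 stood at 89.7 and 113 CPM, a ratio of 0.33 (−0.13 to 0.80), H2-D1 at 356 and 385 and B2m at 473 and 487, and the median of 9 genes was 0.11 beside 0.06 over all genes. In the later cells 5 of 10 genes were lower by 0.5 or more, against 8.0% of 8726 genes, with a median of −0.54 beside 0.17. None was higher by as much, against 19.9%. H2-K1 stood there at 716 and 440, a ratio of −0.70 (−0.87 to −0.54), Psmb9 at 197 and 112, a ratio of −0.81 (−1.15 to −0.49), and B2m at 1203 and 804, a ratio of −0.58 (−0.70 to −0.46). H2-D1, at 774 and 735, was at −0.08 (−0.21 to 0.06). With WT-labelled cells of the whole Itm2a cluster weighted to the KO-labelled ones by a maturation score of late minus early markers, the median was −0.16, and −0.12 with Klf2 and S1pr1 left out of the score. How much of the difference belongs to maturation and how much to the genotype was not tested.

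**Figure D3:**
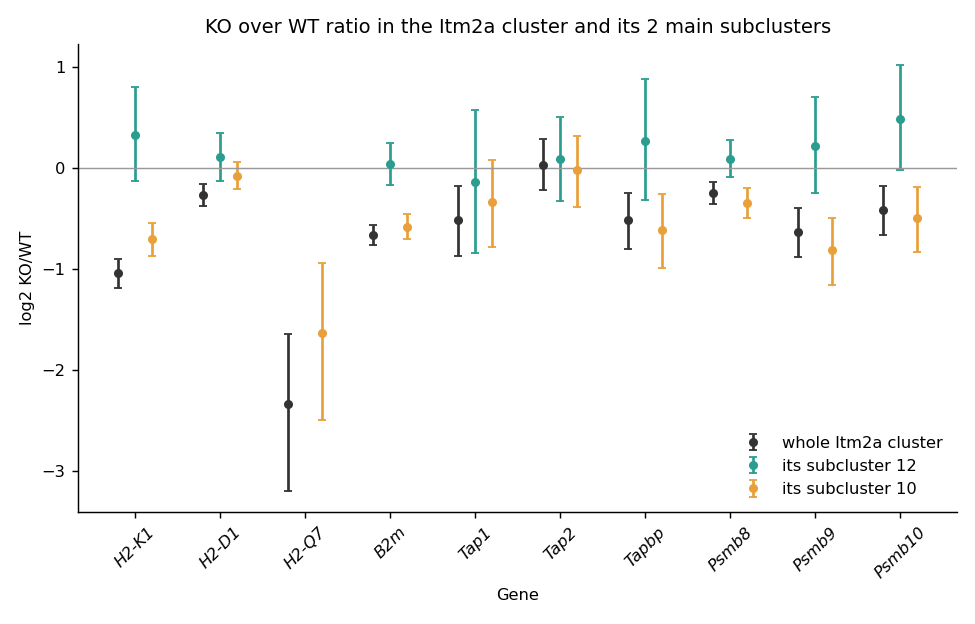
Log2 ratio of KO over WT of each gene in the whole Itm2a cluster and in its earlier (subcluster 12) and later (subcluster 10) cells, with 95% intervals as bars. In the earlier cells all 9 drawn intervals hold 0, and in the later cells 7 of 10 lie below 0.

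In the Ms4a4b cluster, of 332 WT-labelled and 396 KO-labelled cells, the heavy chains parted. There 2 of 10 genes were lower by 0.5 or more, against 7.03% of 9586 genes, and 0 were higher, against 27.0%. The median was −0.22 beside 0.24 over all genes, an offset that also shifts each ratio given relative to it below. H2-D1 stood at 1377 and 1656 CPM, a ratio of 0.27 (0.20 to 0.34), which is 0.03 above the all-gene median and 0.01 with TMM factors. H2-K1, at 1659 and 1567, had a ratio of −0.08 (−0.15 to −0.02), 0.32 below that median. B2m, at 1974 and 1512, had a ratio of −0.39 (−0.45 to −0.32).

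Psmb9 stood in the Ms4a4b cluster at 266 and 187 CPM, a ratio of −0.51 (−0.69 to −0.33), and Psmb8 at 776 and 611, a ratio of −0.35 (−0.45 to −0.24). Psmb10 was at −0.18 (−0.37 to 0.01), Tap1 at −0.25 (−0.51 to 0.00) and Tapbp at −0.14 (−0.36 to 0.08). Tap2 was at 108 and 135, a ratio of 0.32 (0.07 to 0.57), or 0.08 above the all-gene median.

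The late SP markers of the Ms4a4b cluster did not move together, so their sums of 3640 and 5152 do not order the libraries by maturation. Klf2 stood at 679 and 1626 CPM, S1pr1 at 261 and 643 and Ms4a4b at 1591 and 1875, while Ms4a6b was level at 608 and 607. Il7r, at 249 and 206, and Ccr7, at 252 and 197, were lower in the KO-labelled cells. Without Klf2 and S1pr1 the sums were 2700 and 2884. Klf2 was also higher in the KO-labelled Rag1 cells, at 8.47 and 29.3. Weighted by the maturation score, the median of the members was −0.28, and −0.24 with Klf2 and S1pr1 left out of it. Markers of other cells also differed in this cluster. The 6 for macrophages summed to 7.30 and 37.1 (4 and 6 of them with a UMI), the 6 measured for early CD4-CD8- and gamma-delta thymocytes to 92.3 and 135, and the 9 for dendritic cells to 257 and 351. Their part in the ratios was not tested.

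**Figure D4:**
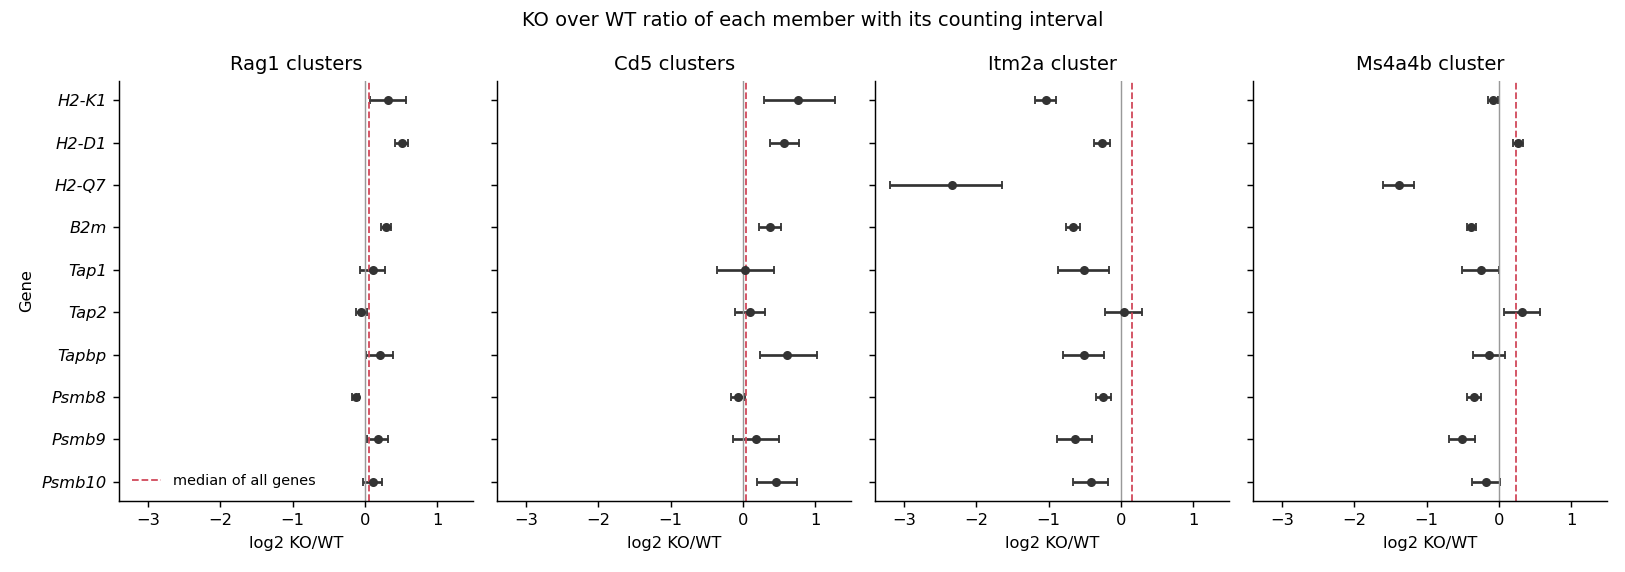
Log2 ratio of KO over WT of the 10 genes in the Rag1, Cd5, Itm2a and Ms4a4b cells, with 95% intervals as bars and the median of all genes as a dashed line. Genes with under 20 UMIs (H2-Q7 in the Rag1 and Cd5 cells) are not drawn. H2-K1, H2-D1 and B2m lie above 0 in the Rag1 and Cd5 cells, 9 of 10 intervals lie below 0 in the Itm2a cells, and in the Ms4a4b cells H2-Q7 (−1.39) and H2-D1 (0.27) lie farthest apart of the heavy chains.

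Of the 10 genes, H2-Q7 had the ratio farthest from 0 in both SP-like clusters. Its lower level in the KO-labelled library was not particular to them. The H2-Q7 ratio was −1.06 (−1.76 to −0.36) in the Myl10 cluster and −1.11 (−1.48 to −0.74) in the Cd74 cluster. From 20 and 9 UMIs it was −1.86 in the Apoe cluster. In the dividing clusters it was −0.26 (−0.85 to 0.33), an interval that holds 0. In the Ms4a4b cluster it had 635 WT-labelled UMIs (273 CPM) and 236 KO-labelled UMIs (104 CPM), a ratio of −1.39 (−1.61 to −1.17). It was found in 186 of 332 WT-labelled cells (56.0%, 50.5 to 61.4) and 81 of 396 KO-labelled cells (20.5%, 16.6 to 24.8), at median depths of 6737.5 and 5032 UMIs. After each cell was thinned to 1000 UMIs, leaving out 1 WT-labelled cell, the shares were 19.6% (15.5 to 24.3) and 8.08% (5.59 to 11.2). In thinned DP-like cells, which serve as background, they were 0.0556% and 0.0216%.

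In the Itm2a cluster H2-Q7 had 143 WT-labelled UMIs and 17 KO-labelled UMIs, a ratio of −2.34 (−3.19 to −1.65). It was found in 47 of 479 cells (9.81%, 7.30 to 12.8) and in 3 of 316 cells (0.949%, 0.196 to 2.75). Of the 17 KO-labelled UMIs, 14 came from 1 cell of 21170 UMIs, and without it the level was 1.61 CPM, beside 42.1 in the WT-labelled cells without their own top cell. The other surface genes were less affected by thinning: in the Ms4a4b cluster H2-K1 was found in 78.9% and 72.0% of thinned cells, H2-D1 in 73.7% and 82.3%, and B2m in 84.0% and 74.0%, beside 98.0% to 99.7% before thinning.

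Cells of both SP-like clusters were then placed in 5 bins of a maturation score, made of late minus early markers. The late markers include Klf2 and S1pr1, so each statement on the bins was repeated without them. In bin 1, the earliest, H2-Q7 had 2 WT-labelled UMIs and 0 KO-labelled ones, too few for a ratio. Its ratios in bins 2 to 5 were 0.31 (−0.60 to 1.20), −0.97, −1.12 and −1.59 (−1.99 to −1.21). The bin 2 ratio rests on 25 WT-labelled and 21 KO-labelled UMIs, and its interval holds 0. The share of bin 2 cells with an H2-Q7 UMI was lower in the KO-labelled library, at 8.15% and 3.33%. In bin 5, with 96 WT-labelled and 209 KO-labelled cells, H2-Q7 stood at 252 and 83.6 CPM. Psmb9 went from 0.22 in bin 1 to −0.84 in bin 4 and −0.61 (−0.89 to −0.33) in bin 5, where it stood at 333 and 218. B2m went from −0.07 in bin 1 to −0.52 in bin 3 and −0.34 (−0.45 to −0.24) in bin 5.

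The classical heavy chains took other courses. H2-K1 had ratios of 0.03, −0.36, −0.23, −0.07 and −0.02, and in the last bin it stood at 1850 and 1825 CPM. H2-D1 had 0.15, 0.11, 0.12, 0.26 (0.15 to 0.37) and 0.33 (0.22 to 0.44), standing at 1557 and 1953 in the last bin. The median of all genes was between 0.07 and 0.25 in the bins. Relative to it H2-K1 was below 0 in every bin, at −0.04, −0.48, −0.44, −0.32 and −0.23, and H2-D1 close to 0 with changing sign, at 0.08, −0.00485, −0.09, 0.01 and 0.12. Within the bins, which pool both SP-like clusters, the H2-K1 ratio was no lower than −0.36. The −1.04 of the Itm2a cluster alone is for a different set of cells. H2-Q7, Psmb9 and B2m stayed lower in the last 3 bins of the KO-labelled library.

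With Klf2 and S1pr1 left out of the score, H2-Q7 had ratios of −1.11, −0.76 and −1.90 in the last 3 bins, B2m −0.43, −0.36 and −0.31, and Psmb9 −0.36, −0.81 and −0.45. H2-K1 was then between −0.16 and 0.32 over the 5 bins, and at 0.00 in the last, or 0.23 below the median of all genes. H2-D1 was between 0.21 and 0.41.

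**Figure D5:**
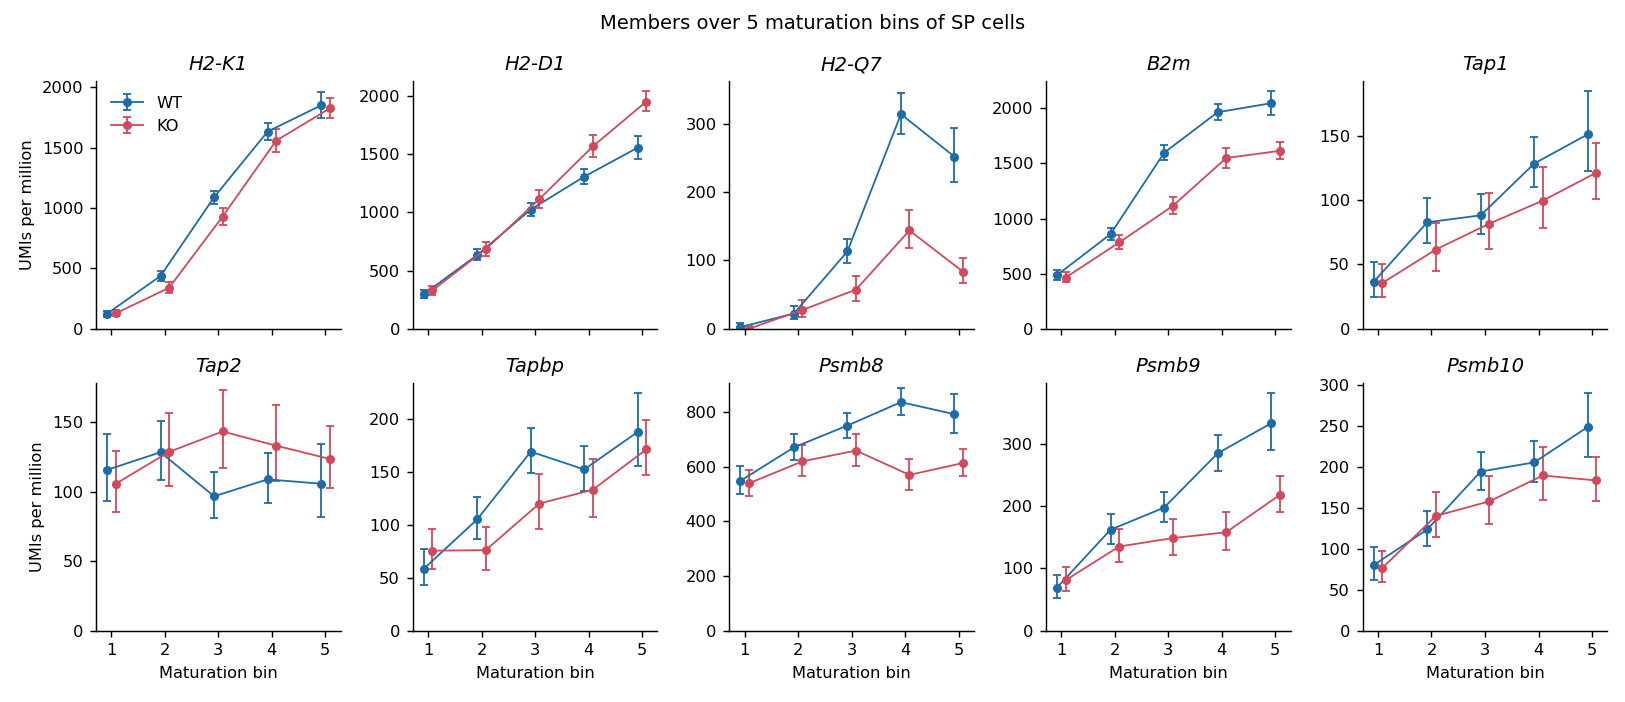
CPM of the 10 genes by maturation bin of SP-like cells in both libraries, with exact 95% Poisson intervals as bars. The H2-K1 points stand at 1850 and 1825 in bin 5, H2-D1 is higher in the KO-labelled cells there, and H2-Q7 is lower in them, at 83.6 beside 252.

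The Ms4a4b cluster was split by coreceptor UMIs into classes that leave out cells with UMIs of both coreceptors or of neither. Cells with Cd8a or Cd8b1 UMIs and no Cd4 (106 WT-labelled, 97 KO-labelled) had H2-Q7 at 402 and 74.0 CPM, a ratio of −2.43 (−2.95 to −1.97). Cells with Cd4 UMIs alone (76 and 90) had it at 185 and 59.4, a ratio of −1.62 (−2.32 to −0.99). Within the WT-labelled library the CD8-type cells had more of it by 1.12 (0.79 to 1.47) on the log2 scale, and within the KO-labelled library by 0.31 (−0.43 to 1.09). A cell without a Cd4 UMI may still express Cd4, so these classes are approximate. The CD4-type and CD8-type cells held 92 and 329 of the 635 WT-labelled H2-Q7 UMIs. They held only 26 and 40 of the 236 KO-labelled ones. Both KO-labelled levels were below the 104 CPM of the whole cluster, so its cells outside the classes had more. The ratios of the classes therefore do not stand for the whole cluster, where the ratio was −1.39.

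The all-gene medians of the same classes were 0.19 (CD4-type) and 0.27 (CD8-type). H2-K1 had ratios of 0.18 (0.03 to 0.33) in the CD4-type and −0.35 (−0.48 to −0.22) in the CD8-type cells, where it stood at 1791 and 1403 CPM. Relative to those medians it was at −0.01 and −0.62. H2-D1 was at 0.53 (0.38 to 0.68) and 0.17 (0.04 to 0.30), or 0.34 above and 0.10 below the medians (−0.10), so its direction in the CD8-type cells turns with that reference. B2m was lower on both scales, at −0.24 (−0.39 to −0.10) and −0.42 (−0.53 to −0.30). In the Itm2a cluster H2-K1 was lower in both classes, at −0.70 (−0.97 to −0.44) and −0.91 (−1.18 to −0.66). There 34 UMIs of H2-Q7 were counted in 130 WT-labelled CD4-type cells and 0 in 78 KO-labelled ones. In the CD8-type cells of that cluster H2-Q7 had 65 and 15 UMIs, a ratio of −0.70 (−1.65 to 0.09), whose interval holds 0. The 15 include the 14 UMIs of the 1 KO-labelled cell described above. That ratio and its interval therefore rest on 1 cell and do not show that the classes differ.

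In the Cd74 cluster (63 and 87 cells) 7 of 10 genes were lower by 0.5 or more in the KO-labelled library, against 18.7% of 4763 genes, B2m among them at 3128 and 1703 CPM, a ratio of −0.88 (−1.02 to −0.73). None was higher by as much, against 25%. The 4 B cell markers summed to 3578 and 38370 CPM there, the 9 dendritic cell markers to 26655 and 18307 and the 6 macrophage markers to 3264 and 823. The cluster therefore held a different mix of cells in each library, and the mix and the genotype cannot be told apart. In the Apoe cluster (30 and 49 cells) H2-K1 was at 2767 and 1010 CPM, from 117 and 72 UMIs, and the macrophage markers summed to 39614 and 32768.

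The rest of the class I route was described by lists of genes chosen by name. Other class I genes had a median KO over WT ratio of −0.03 in the Rag1, 0.07 in the Itm2a and −0.11 in the Ms4a4b cells, beside 0.05, 0.16 and 0.24 over all genes. Of them 2 of 10 were lower and 2 higher in the Itm2a cells, against 6.68% and 15.8% of all genes, and 2 of 11 lower and 3 higher in the Ms4a4b cells, against 7.03% and 27.0%. H2-Q4 was lower in both, at −0.67 (−1.20 to −0.18) and −0.66 (−1.0 to −0.33). H2-T23, the Qa-1 heavy chain, was at 393 and 356 CPM in the Ms4a4b cells, a ratio of −0.14 (−0.28 to −0.01). H2-K2 had 32 and 86 UMIs in the Ms4a4b cells, a ratio of 1.45 (0.86 to 2.10), and shares part of its 3′ end with H2-K1.

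Chaperones that help fold and load the heavy chain did not move as 1 group. Of 10 loading and trimming genes 1 was lower and 2 were higher in the Ms4a4b cells, against 7.03% and 27.0% of all genes, with a median of 0.20 beside 0.24, so the list was close to the background. Calr, the chaperone calreticulin, was the lower one, at 315 and 202 CPM and a ratio of −0.64 (−0.81 to −0.47), and Pdia3, its partner in the loading complex, was at −0.35 (−0.54 to −0.16). Tapbpl, a relative of tapasin that edits peptides, had 99 and 129 UMIs and a ratio of 0.42 (0.03 to 0.81). Of 18 other proteasome genes 0 passed in either direction in the Rag1, Itm2a or Ms4a4b cells, with medians of −0.03, 0.08 and 0.04. Psme2, a subunit of the interferon-inducible cap, was at −0.33 (−0.49 to −0.17) in the Itm2a cells and 0.01 (−0.12 to 0.15) in the Ms4a4b cells.

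Regulators and interferon response genes were also listed. Of 19 regulators 5 were lower in the Itm2a and 3 in the Ms4a4b cells, and 0 were higher in either, while 4 were higher and 0 lower in the Rag1 cells. Over all genes 6.68% and 7.03% were lower in the Itm2a and Ms4a4b cells and 7.44% were higher in the Rag1 cells. Irf1, a transcription factor induced by interferons, was at 65.5 and 36.7 CPM in the Itm2a cells, a ratio of −0.83 (−1.25 to −0.44), and at 118 and 94.4 in the Ms4a4b cells, a ratio of −0.32 (−0.59 to −0.06). Nlrc5, the class I transactivator, had 92 and 55 UMIs in the Ms4a4b cells, a ratio of −0.70 (−1.21 to −0.21), and 12 and 35 in the Rag1 cells.

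Of 15 interferon response genes, 7 were higher and 0 lower in the Rag1 cells (median 0.49), 11 lower and 0 higher in the Itm2a cells (median −0.97), and 11 lower and 0 higher in the Ms4a4b cells (median −0.64). Over all genes 7.44% were higher in the Rag1 cells, and 6.68% and 7.03% lower in the Itm2a and Ms4a4b cells. Weighted by the maturation score, the Itm2a median of this list was −0.47 with 7 lower, or −0.39 with 4 lower when Klf2 and S1pr1 were left out of the score, and the Ms4a4b median −0.66 or −0.65. Isg15 stood at 365 and 137 CPM in the Ms4a4b cells, a ratio of −1.41 (−1.61 to −1.22), and Ifi27l2a at 15.3 and 54.9 in the Rag1 cells, a ratio of 1.84 (1.60 to 2.10). The interferon list and the members therefore had medians of the same sign in the Rag1, Itm2a and Ms4a4b cells, and the list's were farther from 0. In the earlier Itm2a cells its median was 0.10, with 3 of 13 lower and 3 higher, and in the later ones −0.78, with 10 of 15 lower. Whether interferon exposure differed between the pools was not measured.

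From the Rag1 to the Ms4a4b cells of the WT-labelled library 13 of the 15 interferon genes were at least 2-fold higher and 0 as much lower, as were 6 of 12 other class I genes (4 lower), 4 of 10 loading genes (0 lower), 2 of 18 proteasome genes (1 lower) and 8 of 19 regulators (4 lower), while 10.5% of all genes were as much higher and 22.4% as much lower. Psme1 and Psme2, both of the inducible cap, had log2 ratios of 1.42 (1.33 to 1.51) and 2.53 (2.39 to 2.68). Irf1 was at 2.84 (2.57 to 3.12), H2-T22 at 2.18 (1.96 to 2.41) and H2-T23 at 1.25 (1.14 to 1.37).

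Some reads may be shared between near copies. In the last 400 bases of annotated transcripts, 5.34% of the 60-base windows of H2-K1 and 4.04% of those of H2-D1 also occur in another gene, and 0% of those of H2-Q7, B2m, Tap2, Psmb8, Psmb9 and Psmb10. Tap1 had 2.18% in common with 1 other gene, its partner Tap2, and Tapbp had 3.14% in common with another gene. H2-D1 is among the genes that hold windows of H2-K1, so some shared reads could fall between members compared here. How the authors' counting treated such reads, and which MHC haplotype the mice carry, are not given in the sources used here.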

How the data were processed

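The 2 libraries (10x 3′), of 5 pooled mice each, were analysed. The authors aligned the reads (processing notes: Cell Ranger 3.0.2, STAR, Seurat, build mm10; the annotation is not given in the sources used here), kept cells of 200 to 6000 genes and at most 50000 reads, and deposited raw UMI counts per gene and cell with the Seurat clusters. Cells were assigned to WT or KO from their names, in which Cdc42 is spelled Cdc45. The files hold fewer cells than the study's text gives, and the stated filter leaves all 13683 deposited cells.

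Here counts were summed per cluster and library (pandas 2.3.3, numpy 2.4.6) and given as CPM (UMIs per 1000000 of the same cells). Log2 ratios had 0.5 added to both sums and needed 20 UMIs over both. Intervals are exact Poisson, conditional binomial or Clopper-Pearson (scipy 1.17.1), and UMIs are taken as independent molecules. A gene was called at a log2 ratio of 0.5 between libraries and 1 between stages. Scaling factors came from edgeR 4.0.16 (TMM) and DESeq2 1.42.0. No doublets were removed in the main values; as an alternative the 367 WT-labelled and 454 KO-labelled cells with the highest Scrublet scores (scanpy 1.11.5) were left out, since its automatic threshold marked 2 and 0 cells. The computation was tested on simulated data. Genes were named by rule: the 10 members, pathway genes with at least 100 UMIs in the cells compared, the 10 most correlated genes, and Cdc42. A pathway gene with fewer UMIs is given only as counts. The members and gene lists were chosen with earlier results of these data known. 1 gene of the regulator list is not reported here.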

Additional observations from a re-analysis of the deposited data

Results flagged for a closer look

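Several members had ratios of opposite sign in different cells, with intervals on opposite sides of 0; the differences themselves were not tested, since there is 1 library per condition. H2-K1 was higher in the KO-labelled library in the Rag1 clusters (log2 ratio 0.31) and lower in the Itm2a (−1.04) and Ms4a4b (−0.08) clusters, differences of −1.36 and −0.40. H2-D1 went from 0.50 in the Rag1 clusters to −0.26 in the Itm2a cluster, a difference of −0.77, and back to 0.27 in the Ms4a4b cluster, a difference of 0.53. B2m went from 0.29 to −0.66 (Itm2a) and −0.39 (Ms4a4b), differences of −0.95 and −0.68. Psmb9 went from 0.18 to −0.64 and −0.51, differences of −0.81 and −0.68. Tapbp went from 0.20 to −0.52 in the Itm2a cluster, a difference of −0.72. The Itm2a values rest on a cluster whose shares of earlier and later cells differed between the libraries.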

How the results depend on the processing

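In the Rag1 clusters the median of the members, and in the KO-labelled library the stage median, moved by less than counting error under every alternative run. The Itm2a result differed between its later and earlier cells. The later ones, in cluster 10 of resolution 1.8 and chosen after seeing the data, gave −0.54 and 5 genes past −0.5. At resolutions 1.8 and 2 the cluster with the most Itm2a (an earlier one) gave a median of 0.16 and 0 genes past −0.5. There H2-K1 was at 0.46, B2m at 0.031, Tapbp at 0.19 and Psmb9 at 0.28. The part in cluster 12 of resolution 1.8, also chosen after seeing the data, gave 0.11 and 0 genes. The later part was 66.0% of the Itm2a cluster in the WT-labelled library but 41.8% in the KO-labelled library. How much of the result came from these shares was not tested. WT-labelled cells weighted to KO maturation gave −0.16 and 1 gene, and −0.12 and 1 gene with Klf2 and S1pr1 left out of the score after seeing the data, which left 1 gene in the Ms4a4b cluster. In the Ms4a4b cluster the median was −0.48 (TMM) and −0.44 (DESeq2 size factors), and the 2 genes past −0.5 became 5 and 4. They became 4 with totals that leave out ribosomal protein and mitochondrial genes. They became 1 with cells thinned to 1000 UMIs, with likely doublets left out, or without the class I heavy chains. The median over all genes also moved, from 0.24 to −0.02 (TMM), 0.02 (DESeq2 size factors) and 0.06 (those totals). The higher counts thus go with a shift of all genes, and the share of all genes past −0.5 was not counted under these scalings. The WT stage median was 2.44 (TMM) and 2.45 (DESeq2 size factors, or those totals). H2-Q7 stayed below 0 in all 14 alternatives in the Ms4a4b cluster (−2.43 to −1.23). Of 112 medians and counts of members under the alternatives, 90 stayed within counting error or 1.5 times, 19 moved and 3 changed sign, and of 596 values of single genes 455 stayed, 133 moved and 8 changed sign. No paired analysis was possible because each condition has 1 library, and no library could be left out. Depth limits H2-Q7 in DP-like cells (8 UMIs per library) and every gene in the Lars2 and Apoe clusters.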
